A study of Mus musculus with 2 samples.

Results

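The genes described here are 36 listed mouse genes that respond to interferons or carry their signal, measured in liver after injury of the kidneys. A listed gene was taken where at least 1 probe set of the array names that gene and no other. This held for 33 of the 36 genes, with 52 probe sets, of 18193 genes with 34945 such probe sets on the array. Isg15, Ifi44 and Gbp4 had no probe set of their own and are not described by value. The study used 2 pools of liver from male wild-type C57BL/6 mice aged 8 weeks. In the renal ischaemia-reperfusion (RIR) group, labelled acute kidney injury, both kidneys had 30 minutes of warm ischaemia, and the other group had a sham operation. Livers were frozen 24 hours after surgery, and 100 mg from the 3 mice of a group were combined in 1 tube and hybridised to 1 Affymetrix array. With 1 array per group there is no replicate error, no test and no p-value, and each value describes these pools only.

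Interferons are secreted proteins that warn cells of infection. Type I interferons bind the receptor of Ifnar1 and Ifnar2, and the kinases Jak1 and Tyk2 then activate a complex with STAT2 and IRF9 that binds the interferon-stimulated response element (ISRE) and drives antiviral genes. Interferon gamma binds the receptor of Ifngr1 and Ifngr2, and its signal acts through the gamma-activated site (GAS). That signal drives Irf1 and the GTPases that attack the vacuoles of intracellular parasites and bacteria. The 36 genes were set in 3 groups by the interferon each is best known for. The type I group has 20 genes, the interferon gamma group 10, and the last group, of receptors and factors made without interferon, 6. Many genes answer to both interferons, so the groups are not exclusive.

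Matches to the ISRE and the GAS are what many of these genes are known to share, so a few promoters are printed here. RefSeq windows (GRCm38.p6), from 250 bases before to 50 after an annotated start, were held for 28 of the 36 genes. Usp18, Mx1, Mx2, Zbp1, Gbp4, Gbp6, Iigp1 and Ifi27l2a were not among them. Both strands were searched for the ISRE core GAAANNGAAA and the GAS core TTCNNNGAA, which reads the same on both strands. Each stretch below is the 160 bases before the start, 5′ to 3′ on the strand of the gene, and capitals mark the matches. The type I genes Ifit1, Ifit3, Rsad2 and Oas1a are shown for the ISRE, the GTPase genes Gbp2, Irgm1 and Igtp because they carry it as well, and Irf1 for a GAS without an ISRE.
Ifit1, chr19:34640729-34640888, plus strand: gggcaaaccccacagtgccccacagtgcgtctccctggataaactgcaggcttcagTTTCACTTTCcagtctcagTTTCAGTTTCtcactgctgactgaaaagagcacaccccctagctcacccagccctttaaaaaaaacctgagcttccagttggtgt
Ifit3, chr19:34583369-34583528, plus strand: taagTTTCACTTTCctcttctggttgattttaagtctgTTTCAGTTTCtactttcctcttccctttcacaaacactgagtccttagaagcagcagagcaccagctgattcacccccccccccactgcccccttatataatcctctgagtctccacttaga
Rsad2, chr12:26456453-26456612, minus strand: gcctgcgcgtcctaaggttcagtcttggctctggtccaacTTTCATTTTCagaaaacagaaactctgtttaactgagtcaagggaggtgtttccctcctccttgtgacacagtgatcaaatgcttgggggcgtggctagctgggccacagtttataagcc
Oas1a, chr5:120907526-120907685, minus strand: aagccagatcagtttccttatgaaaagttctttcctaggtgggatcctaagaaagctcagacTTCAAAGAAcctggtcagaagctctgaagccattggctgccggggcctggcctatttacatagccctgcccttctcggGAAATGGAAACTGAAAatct
Gbp2, chr3:142620503-142620662, plus strand: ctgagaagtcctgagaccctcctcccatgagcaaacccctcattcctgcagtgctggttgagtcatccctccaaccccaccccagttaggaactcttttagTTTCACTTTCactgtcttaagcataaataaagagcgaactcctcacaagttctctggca
Irgm1, chr11:48871421-48871580, minus strand: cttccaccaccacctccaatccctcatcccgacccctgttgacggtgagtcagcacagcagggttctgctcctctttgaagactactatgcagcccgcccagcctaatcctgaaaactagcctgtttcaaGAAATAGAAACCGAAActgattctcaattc
Igtp, chr11:58199396-58199555, plus strand: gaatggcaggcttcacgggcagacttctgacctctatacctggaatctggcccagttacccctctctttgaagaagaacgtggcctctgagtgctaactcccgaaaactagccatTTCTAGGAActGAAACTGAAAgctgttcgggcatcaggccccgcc
Irf1, chr11:53769854-53770013, plus strand: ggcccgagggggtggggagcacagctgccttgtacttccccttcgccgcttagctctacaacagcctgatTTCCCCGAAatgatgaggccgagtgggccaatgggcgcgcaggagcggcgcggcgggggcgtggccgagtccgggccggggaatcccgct

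An ISRE core lay in the window of 13 of the 28 genes (46.4%), against 3.99% of 27025 genes with a window in the same table. A GAS core lay in 9 of the 28 (32.1%), against 9.55% of all genes. In the type I group 8 of 15 genes with a window had an ISRE core and 3 a GAS core. In the interferon gamma group 4 of 7 had an ISRE core and 3 a GAS core. Of the 6 receptors and constitutive factors, 1 had an ISRE core and 3 a GAS core. Each of the 3 groups thus held matches of both motifs. Oas1a, Igtp and Irf2 had both motifs and 9 genes had neither, and no ISRE match overlapped a GAS match. Matches of the ISRE core overlapped each other in Isg15, Oas1a, Irgm1 and Gbp3. A match of letters is a description and not a bound site.

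**Figure D1:**
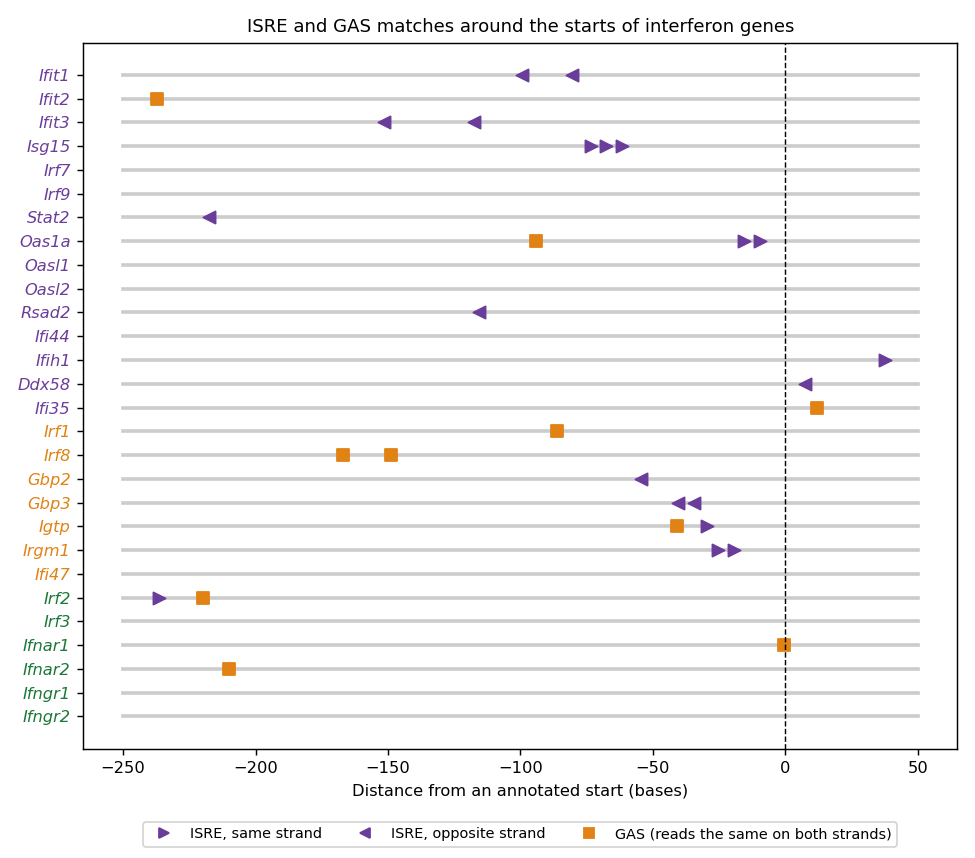
Matches of the ISRE core (triangles, pointing right for the strand of the gene and left for the opposite strand) and of the GAS core (squares) by distance in bases from an annotated start, for 28 genes with a RefSeq window; name colours give the type I group (purple), the interferon gamma group (orange) and the receptors and constitutive factors (green). In Ifit1, Ifit3, Gbp2, Irgm1 and Igtp the ISRE matches lie before the start, and in Ifih1 and Ddx58 they lie after it.

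The signals are array intensities on a linear scale, and the median, controls left out, was 254.1 in the RIR pool and 257.0 in the sham pool. Signals under that median are called dim here. Differences are log2 of the signal plus 16, RIR minus sham, so that 1 is 2-fold, and the 16 shrinks differences of dim probe sets. A gene was measured where at least 1 of its signals reached the array median, and it was represented by its brightest probe set on average over both arrays. This left 13117 of 18193 genes (72.1%) and 27 of the 33 genes described here (81.8%). Over the 13117 genes the differences had a median of -0.01 and quartiles of -0.45 and 0.42, and within a gene its probe sets scattered around their mean with an SD of 0.72. As a check of the tissue, 5 of 5 hepatocyte markers were measured, with signals of 37515 to 72494 in the RIR pool and 24573 to 49596 in the sham pool. For beta-actin, the 3′ control signal over the 5′ one was 1.24 in the RIR pool and 1.38 in the sham pool. The same ratio for Gapdh was 0.72 in the RIR pool and 0.74 in the sham pool.

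Most of the interferon genes had lower signals in the RIR pool, by amounts that were mostly under 2-fold. Of the 27 measured, 19 were lower and 8 higher, with a median log2 difference of -0.54, while 50.7% of all 13117 genes were lower. At least 2-fold lower were 6 of the 27 (Irf9, Gbp6, Oasl1, Ifi47, Gbp2 and Irf3), against 9.59% of all genes. At least 2-fold higher were 2 (Iigp1 and Zbp1), against 8.71% of all genes. The split of calls depends on the scale. All 18 spiked bacterial controls for hybridisation had higher signals on the RIR array, and taking them as reference shifts each difference by -0.28, which makes 8 of the 27 at least 2-fold lower and 2 higher. By that reference 2016 of the 13117 genes were at least 2-fold lower and 756 higher, instead of 1258 and 1143. Among all called genes the higher ones then make up 27.3% instead of 47.6%. In 22 of the 27 genes both signals reached the array medians, and of these only Oasl1, Ifi47 and Irf3 were at least 2-fold lower (6.17% of all such genes) and only Iigp1 higher (5.14%). With each dim signal raised to the array median, the counts over the 27 were also 3 lower and 1 higher, against 6.62% and 5.59% of all genes. At 1.5-fold 12 were lower and 4 higher (19.3% and 18.7% of all genes), and at 3-fold Irf9 and Gbp6 were lower and none was higher (4.49% and 3.6%). Both have a dim RIR signal, and by their bounds against the array median (at least 1.80-fold for Irf9 and 1.15-fold for Gbp6) neither is shown to pass 3-fold or 2-fold.

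**Figure D2:**
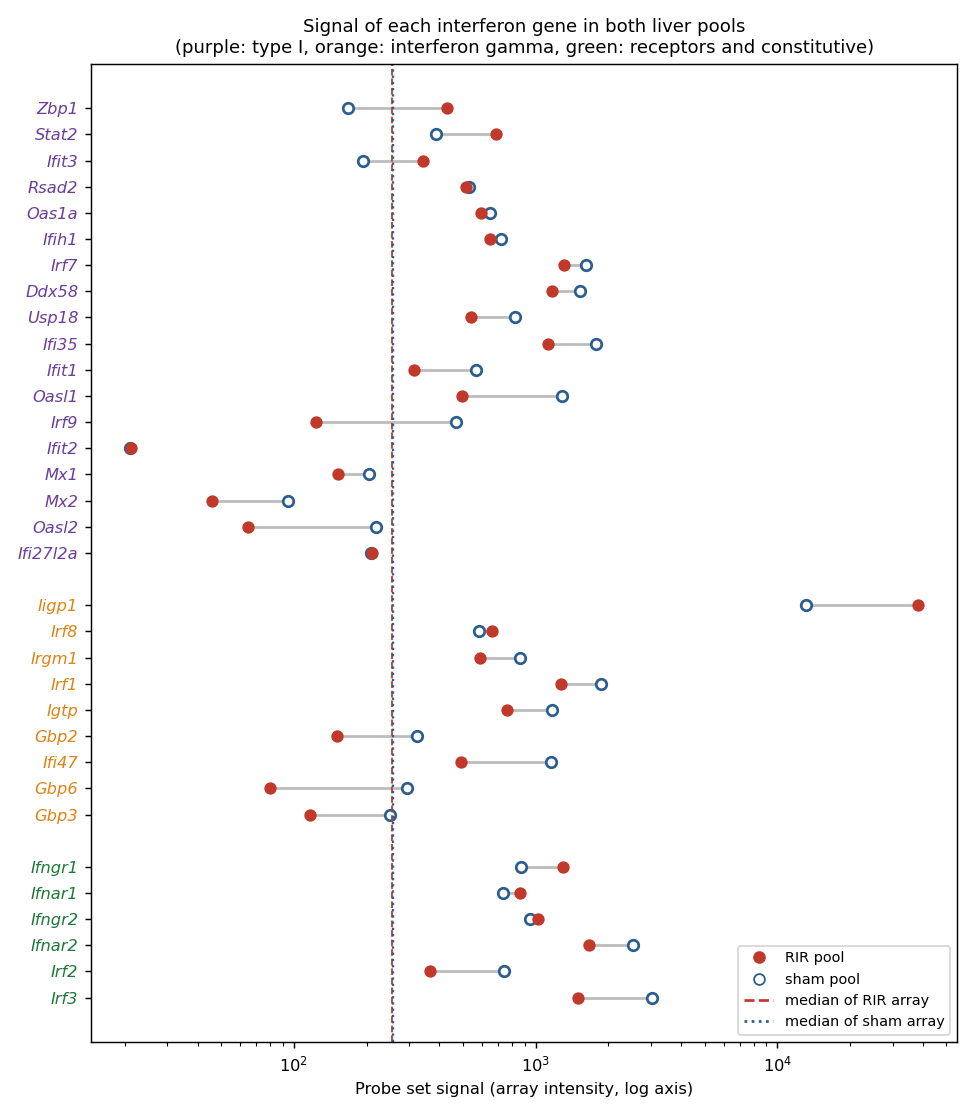
Signal of the representing probe set of 33 interferon genes on a log axis, with the RIR pool as filled red points, the sham pool as open blue points, and the array medians of 254.1 (RIR) and 257.0 (sham) as vertical lines; within each group genes run from the highest to the lowest difference, and genes dim on both arrays come last. Most red points lie left of their blue point, while Iigp1 stands at 38160 in RIR and 13078 in sham.

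The type I group had 13 measured genes, a median difference of -0.29 and a range of -1.80 to 1.29. In it 10 genes were lower and 3 higher, with 2-fold calls for 2 of the lower genes (15.4% of 13, against 9.59% of all genes) and 1 of the higher genes (7.69%, against 8.71%). The higher one, Zbp1, is unsettled. Its representing probe set is at least 1.64-fold higher by its bound, but its other measured one stands at -1.83. Irf9, 1 of the lower ones, is at least 1.80-fold lower by its bound. The interferon gamma group had 8 measured genes, a median of -0.58 and a range of -1.70 to 1.54, with 6 lower and 2 higher. Of the 8, 3 were at least 2-fold lower and 1 higher (37.5% and 12.5%, against 9.59% and 8.71% of all genes). Of these lower calls, Gbp2 and Gbp6 have a dim RIR signal and bounds of only 1.25-fold and 1.15-fold, which leaves Ifi47. The receptors and constitutive factors had 6 measured genes and a median of -0.24, with 3 lower and 3 higher and 1, Irf3, at least 2-fold lower. The ranges of the type I and interferon gamma groups overlap almost entirely, and the difference between their medians was not tested. By level, 12 of the 13 type I genes reached the array median in the RIR pool and 11 in the sham pool. Of the 8 interferon gamma genes, 6 reached it in the RIR pool and 8 in the sham pool. Among all 13117 genes 12023 reached it in the RIR pool and 12017 in the sham pool. The filter itself asks for at least 1 such signal, so high counts are built in.

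**Figure D3:**
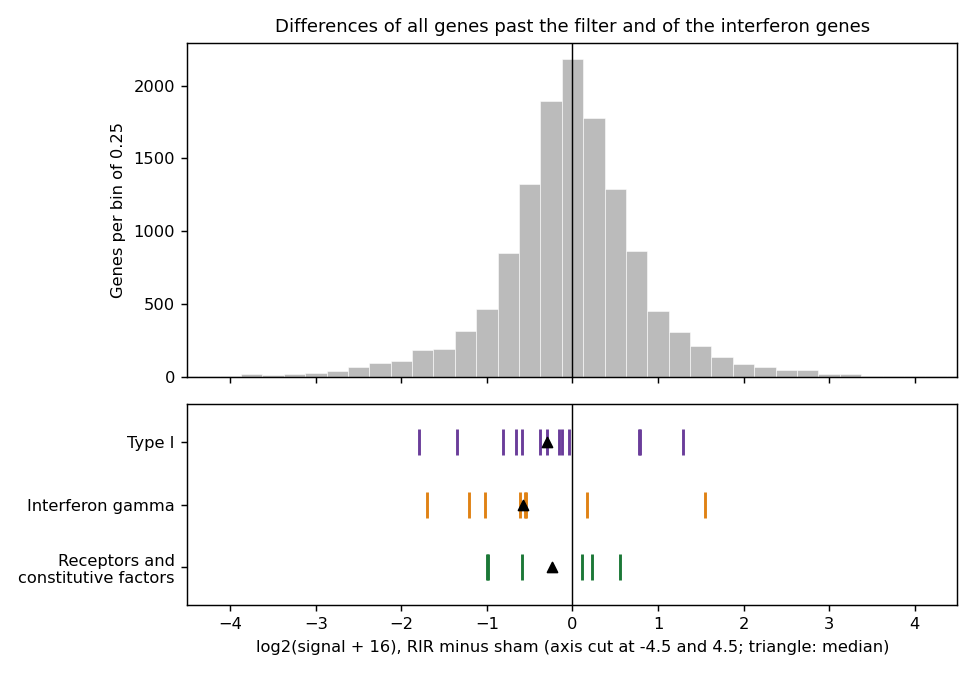
Top, number of genes per bin of 0.25 in log2 difference (RIR minus sham) for 13117 measured genes. Bottom, the same difference for each measured interferon gene as a tick, with the median of each group as a triangle, at -0.29 for type I, -0.58 for interferon gamma and -0.24 for receptors and constitutive factors; the ticks of the groups overlap.

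Among the antiviral effectors of the type I group, 6 of 7 measured genes were lower (against 50.7% of all genes) and 1 was higher. The 6 include Rsad2, at -0.05 by its representing probe set but at 0.31 by the mean of its probe sets. Oasl1, an oligoadenylate synthetase-like protein that restrains translation of Irf7 in mice, had a signal of 496.8 in the RIR pool, against 1289 in the sham pool. This 2.55-fold lower signal (log2 difference -1.35) was the only call among effectors, and 791 of the 13117 genes had a difference at least as low. Ifit1, which binds viral RNA with an incomplete cap, had 313.7 in the RIR pool and 564.6 in the sham pool (-0.82). Its relative Ifit3 went the other way, with 342.1 in the RIR pool and a dim 193.1 in the sham pool, at least 1.31-fold higher. In the stretches printed above, both promoters hold the same pair of ISRE matches, TTTCACTTTC and TTTCAGTTTC. Usp18, a protease that removes ISG15 from proteins and dampens signalling from Ifnar2, had 542.6 in the RIR pool and 823.6 in the sham pool (-0.59). Oas1a, an oligoadenylate synthetase, differed little, with 595.6 in the RIR pool and 649.4 in the sham pool (-0.12).

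Rsad2 and Ifi35 depended on the probe set. Rsad2, viperin, which makes a chain-terminating nucleotide, had 515.8 in the RIR pool and 532.7 in the sham pool by its representing probe set (-0.05), while the other two stood at 0.21 and 0.78. For Ifi35, an interferon-induced leucine zipper protein, the representing probe set can cross-hybridise and had 1120 in the RIR pool and 1785 in the sham pool (-0.66). A second one that can cross-hybridise stood at -0.61, and the third at 0.01. Of the 8 genes with more than 1 measured probe set, 3 had all of them on the same side and 5 did not.

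**Figure D4:**
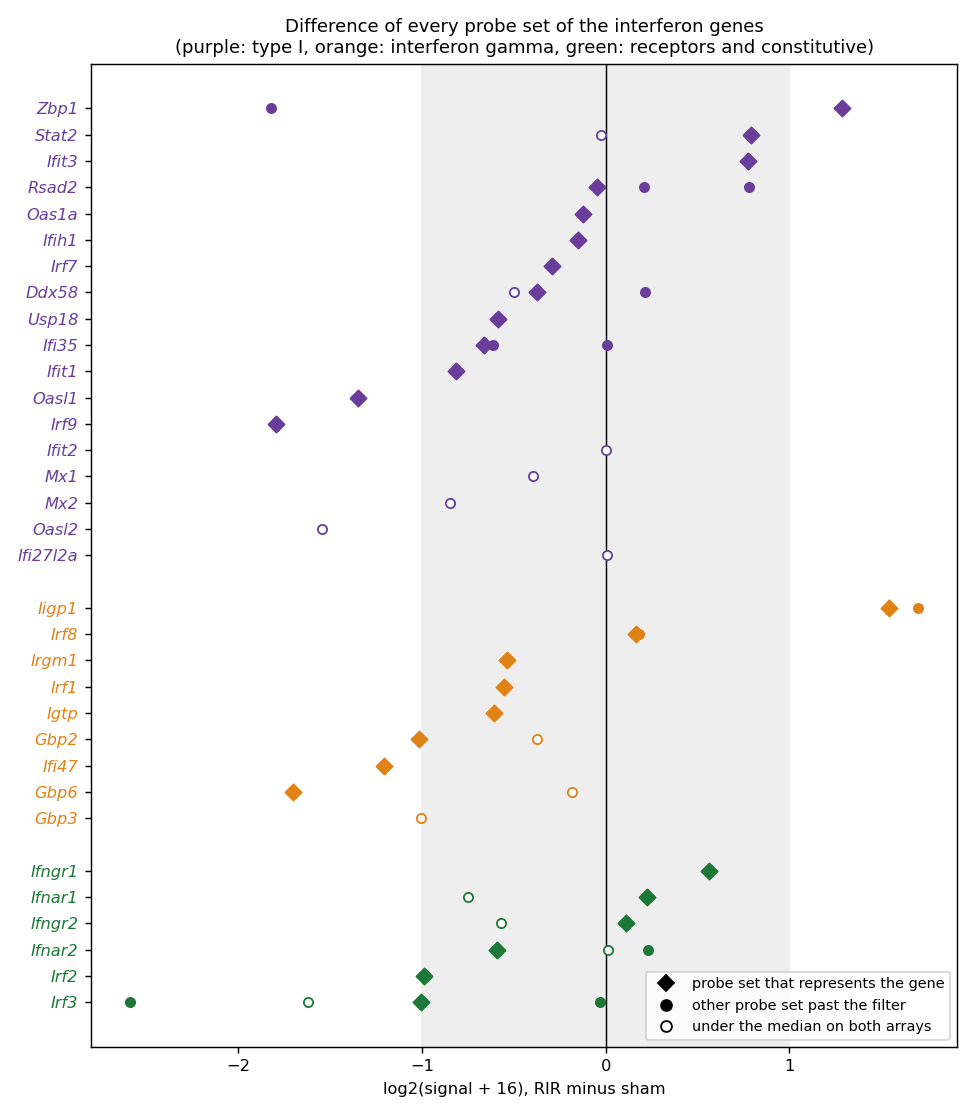
Log2 difference (RIR minus sham) of each of the 52 probe sets of 33 interferon genes, with diamonds for the representing probe set, filled circles for other probe sets past the filter and open circles for those dim on both arrays; the grey band marks differences under 2-fold. Both probe sets of Iigp1 lie right of the band, while those of Zbp1 lie on opposite sides of it.

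A further 5 type I effectors were dim on both arrays, so no fold is given. Mx1, a dynamin-like GTPase against influenza virus, had 152.6 in the RIR pool and 205.5 in the sham pool, and laboratory strains such as C57BL/6 are known to carry defective Mx1 and Mx2 genes. Mx2 had 45.7 and Oasl2 64.4 in the RIR pool, against 95.0 for Mx2 and 218.6 for Oasl2 in the sham pool. Ifit2 had 21.2 in the RIR pool and 21.1 in the sham pool, and Ifi27l2a 209.7 in the RIR pool and 208.7 in the sham pool. None of these genes gave a signal at the level of the array median in either pool.

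Of the sensors, the RNA helicases differed little and Zbp1 was unsettled. Ifih1, the sensor MDA5 for long double-stranded RNA, had 646.7 in the RIR pool and 720.9 in the sham pool (-0.15). Ddx58, the sensor RIG-I for uncapped RNA, had 1173 in the RIR pool and 1525 in the sham pool (-0.37), and its other measured probe set stood at 0.22. Zbp1, which senses Z-form nucleic acid and can start necroptosis, had probe sets that opposed each other. The representing one had 432.0 in the RIR pool and a dim 167.5 in the sham pool (1.29, at least 1.64-fold higher). The other had a dim 68.7 in the RIR pool and 284.1 in the sham pool (-1.83), and the mean of both was -0.27.

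Among the transcription factors of the interferon response, 5 of 7 were lower (against 50.7% of all genes) and 2 higher. Irf9, the DNA-binding subunit of the type I complex, had a dim 123.6 in the RIR pool, against 468.9 in the sham pool. It was at least 1.80-fold lower by the bound against the array median (-0.84 with the dim signal raised to it), and its measured difference was -1.80. Stat2, its partner in that complex, was the opposite, with 683.1 in the RIR pool and 387.5 in the sham pool (0.79), though its second probe set was dim on both arrays and stood at -0.02. Irf7, which amplifies type I interferon production, had 1311 in the RIR pool and 1609 in the sham pool (-0.29). The subunits of 1 complex thus lay on both sides of no difference.

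Irf1, the first-wave factor of interferon gamma, had 1269 in the RIR pool and 1873 in the sham pool (-0.56). Irf8, a factor of myeloid cells, had 657.5 in the RIR pool and 584.9 in the sham pool (0.16), and its second probe set stood at 0.18. With the hybridisation controls as reference Irf8 stands at -0.12, so its direction is not settled. Irf2, which competes with Irf1 for the same sites, lay just outside the 2-fold threshold, with 365.9 in the RIR pool and 741.9 in the sham pool by a probe set open to cross-hybridisation (-0.99). Irf3, the factor that starts transcription of interferon beta, lay just inside it, with 1501 in the RIR pool and 3024 in the sham pool, again by one open to cross-hybridisation (-1.003). All 3 measured probe sets of Irf3 were lower, from -2.59 to -0.03. The 2 measured ones that are not open to cross-hybridisation stood far apart, the brighter at -0.03 and the other at -2.59, with a dim 98.1 in the RIR pool and 670.4 in the sham pool. The call of Irf3 thus depends on the probe set.

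Most immunity-related GTPases and guanylate-binding proteins among the 36 genes were lower in the RIR pool, with Iigp1 as the exception. Of the 6 measured, 5 were lower (against 50.7% of all genes), 3 of them at least 2-fold (against 9.59%). Of these calls, Gbp2 and Gbp6 have a dim RIR signal and bounds under 2-fold, which leaves Ifi47. Ifi47, an immunity-related GTPase also called IRG-47, had 492.8 in the RIR pool and 1160 in the sham pool, 2.31-fold lower (-1.21), and 952 of the 13117 genes had a difference at least as low. Igtp, a regulatory GTPase that keeps the effector GTPases off host membranes, had 763.7 in the RIR pool and 1173 in the sham pool (-0.61). Irgm1, a regulator of the same kind, had 587.8 in the RIR pool and 861.6 in the sham pool (-0.54). These 3 genes reached the array median in both pools.

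The guanylate-binding proteins are a second family of these GTPases, and the 3 of the 36 genes with a probe set of their own were dim in the RIR pool. Gbp2 had a dim 151.0 in the RIR pool and 321.9 in the sham pool, at least 1.25-fold lower, and Gbp6 a dim 79.6 in the RIR pool and 295.3 in the sham pool, at least 1.15-fold lower. Their measured differences of -1.02 and -1.70 pass 2-fold, but the bounds do not. Gbp3 was dim on both arrays, with 116.2 in the RIR pool and 249.0 in the sham pool. Each of the 3 genes thus had its lower signal in the RIR pool. Of 9 further GTPases outside the 36 genes 3 were measured, of which 2 were lower and 1 higher. Gbp7, named after its value was seen, was higher, with 754.5 in the RIR pool and 620.3 in the sham pool (0.28), though its other measured probe set stood at -0.51. Gbp2b, also named after its value was seen, had 356.6 in the RIR pool and 508.8 in the sham pool (-0.49).

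Iigp1, an effector GTPase that coats and disrupts parasite vacuoles and is also known for constitutive transcription in mouse liver, was higher in the RIR pool. By its representing probe set it had 38160 in the RIR pool, against 13078 in the sham pool, a 2.92-fold higher signal (1.54). The second probe set had 10730 in the RIR pool and 3287 in the sham pool (1.70). Of 13117 genes, 502 had a difference at least as high. Over the 10 alternatives tried Iigp1 lay between 1.21, by quantile normalization, and 1.62. The 5 hepatocyte markers (Alb, Ttr, Apoa1, Tat and Serpina1c) were all higher too, with a median difference of 0.49 and a summed signal of 312687 in the RIR pool and 216153 in the sham pool, and their part in the value of Iigp1 was not tested. Without Iigp1 the median of the interferon gamma group was -0.61, with 6 of 7 genes lower.

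The receptor chains differed less than 2-fold. Ifngr1, the ligand-binding chain for interferon gamma, had 1297 in the RIR pool and 874.1 in the sham pool (0.56). Ifngr2, its signalling partner, had 1027 in the RIR pool and 948.8 in the sham pool (0.11). Ifnar1 had 862.8 in the RIR pool and 734.3 in the sham pool (0.23). For Ifngr2 and Ifnar1 the direction turns with the hybridisation controls as reference, at -0.17 and -0.06. Ifnar2, the high-affinity chain for type I interferon, had 1668 in the RIR pool and 2522 in the sham pool (-0.59), while another measured probe set, which can cross-hybridise, stood at 0.23. All 4 chains reached the array median in both pools.

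The differences of genes with and without an ISRE core overlapped. Of 11 measured genes with a match in the window, 9 were lower, with a median of -0.37 and a range of -1.02 to 0.79. Of 12 measured genes with a window and no match, 8 were lower, with a median of -0.57 and a range of -1.80 to 0.56. Of all 13117 genes 50.7% were lower. Oasl1, Ifi47 and Irf9 were among those without a match, which says only that these letters are not in these windows.

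Other genes of the pathway came from a list of 70, of which 61 had a probe set of their own and 47 were measured. Their median was -0.17, and past 2-fold were 6 lower genes (12.8%, against 9.59% of all genes) and 4 higher ones (8.51%, against 8.71%), shares not far from those of all genes. Of the interferons, Ifnb1 had a dim 92.6 in the RIR pool and 321.7 in the sham pool, at least 1.25-fold lower. Ifng was dim on both arrays, with 38.8 in the RIR pool and 226.1 in the sham pool. Ifna2 had 869.6 in the RIR pool and 2824 in the sham pool (-1.68). The remaining 2-fold lower genes were Rtp4, an interferon-induced chaperone (at least 2.09-fold lower, 109.3 in the RIR pool and 547.8 in the sham pool), and, named after their values were seen, the DNA sensor Cgas (-1.35), the adaptor Mavs (-1.03) and the GTPase Irgm2 (-1.58, at least 1.80-fold).

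Most of the listed signalling genes downstream of the receptors were higher in the RIR pool. Of 8 measured, 6 were higher (against 49.3% of all genes) and 3 of these at least 2-fold (37.5%, against 8.71%), with a median of 0.70. The shift of -0.28 by the hybridisation controls turns Pias1 (0.26, named after its value was seen) lower. It also takes Ptpn11 under 2-fold. Socs3, a feedback inhibitor of JAK kinases, had 4046 in the RIR pool and 918.5 in the sham pool (2.12), and its 3 probe sets were all higher. The phosphatase Ptpn2, which acts on JAK and STAT proteins, had 5064 in the RIR pool and 1864 in the sham pool (1.43), and Ptpn11, named after its value was seen, stood at 1.07. Socs1, the main inhibitor of interferon gamma signalling, had 681.4 in the RIR pool and 362.8 in the sham pool (0.88). The kinases differed less, with Jak1 at 0.53, Tyk2 at -0.13 and Jak2 at -0.68. The effectors outside the 36 genes were mostly lower, 14 of 21 measured (66.7%, against 50.7% of all genes), with a median of -0.20. At least 2-fold lower was 1 of the 21 (4.76%, against 9.59% of all genes), and 1 was at least 2-fold higher (4.76%, against 8.71%). The higher one was Ifitm2, a membrane protein that hinders viral entry, with 13676 in the RIR pool and 5776 in the sham pool (1.24).

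Kupffer cells, the resident macrophages of the liver, respond to interferon, and most of their markers were lower as well. Of 8 Kupffer cell markers, all measured, 7 were lower in the RIR pool (against 50.7% of all genes) and 2 of them at least 2-fold (against 9.59%). Cd5l stood at -1.57, and C1qa, with a dim 166.5 in the RIR pool and 958.5 in the sham pool, was at least 3.61-fold lower. The list had a median of -0.54 and a summed signal of 6861 in the RIR pool and 11074 in the sham pool, with no marker at 0. Clec4f, a lectin that defines Kupffer cells, had 828.7 in the RIR pool and 1545 in the sham pool (-0.89). Csf1r, Timd4, Adgre1 and Vsig4 differed less, between -0.58 and -0.24. Marco went the other way, at 0.18 by its representing probe set and 2.58 by its other measured one. In pooled tissue, fewer cells of a type and less RNA per cell cannot be told apart, and the part of these markers in the lower interferon genes was not tested. Lymphocyte markers differed less. The T and NK cell list had a median of 0.11 over 4 of 7 markers and summed signals of 2760 in the RIR pool and 2488 in the sham pool, and the B cell list a median of -0.07 over 3 of 4 and sums of 1425 in the RIR pool and 1508 in the sham pool.

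Sinusoidal endothelial markers had a median of -0.12 over 6 of 6, with sums of 7374 in the RIR pool and 6604 in the sham pool. The higher RIR sum rests on Lyve1, with 2740 in the RIR pool and 326.8 in the sham pool (3.01), and without it the sums were 4634 in the RIR pool and 6278 in the sham pool. Clec4g was 2.08-fold lower, with 1011 in the RIR pool and 2117 in the sham pool. Neutrophil markers had a median of 0.37 over 5 of 7, with sums of 5409 in the RIR pool and 3461 in the sham pool. Of them S100a8 was at least 5.21-fold higher, with 1407 in the RIR pool and a dim 45.6 in the sham pool, and S100a9 at least 2.95-fold higher, with 788.1 in the RIR pool and a dim 204.8 in the sham pool, while Elane, Mpo and Ngp lay between -0.44 and 0.37. Of the plasmacytoid dendritic cell markers 2 of 3 were measured, with sums of 801.6 in the RIR pool and 504.0 in the sham pool. Kidney tubule markers had a median of -0.21 over 4 of 6, with sums of 2269 in the RIR pool and 2785 in the sham pool. Pancreatic acinar markers, foreign to liver, were higher, with 7 of 10 measured, 5 at least 2-fold higher (against 8.71% of all genes) and a median of 2.08. Of the 5, Cpa1, Cpb1 and Ctrb1 were dim in the sham pool, with bounds of 3.42-fold, 2.54-fold and 4.22-fold. The sum over the 7 markers was 9840 in the RIR pool and 3934 in the sham pool. The part of these markers in the results on interferon genes was not tested.

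**Figure D5:**
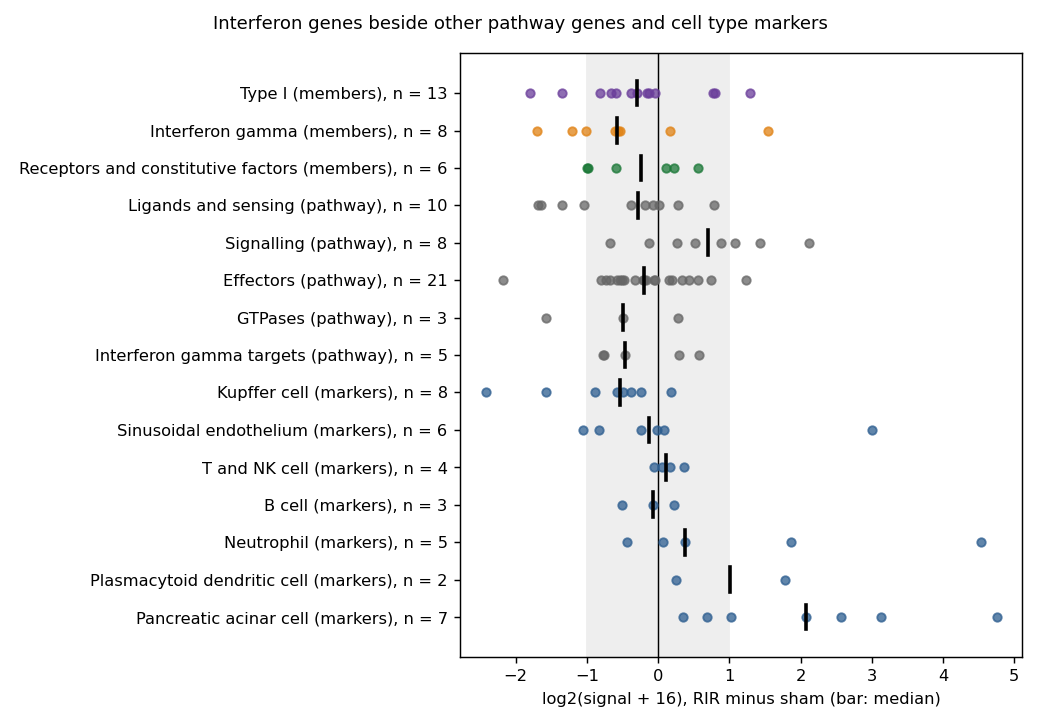
Log2 difference (RIR minus sham) of each measured gene in the 3 groups of interferon genes, in 5 lists of other pathway genes and in 7 lists of cell type markers, with the median as a black bar and differences under 2-fold as a grey band. Signalling genes have a median of 0.70 and Kupffer cell markers one of -0.54, next to -0.29 for the type I and -0.58 for the interferon gamma group.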

How the data were processed

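Trizol-extracted RNA, 6 ug a pool, gave the biotinylated cRNA, per the labels' protocols. The deposited values are an array intensity per probe set. The tool that summarised probes was not given in the sources used here. Trimmed means (2% off either end) were 500.0 for the RIR and the sham array, which shows that the authors scaled the deposited intensity values. Of 45037 probe sets that are not controls, 34945 named 1 gene, 932 several and 9160 none in the platform annotation, which can be old, and symbols were updated through Entrez IDs. The median filter, the pseudocount of 16, the representing probe set and the log2 differences were computed from the deposited intensities with Python 3.11.15 and pandas 2.3.3. Genes under the median on 1 array have a bound, the brighter signal over the other array's median, both plus 16. Suffixes _x_at and _s_at mark probe sets that can cross-hybridise. All 36 genes are named. Of the other pathway genes, the 3 highest, the 3 lowest and 8 set genes are named, and exceptions are said. The genes and lists were chosen with earlier results of these data known. The steps were tested on simulated data. Alternatives were quantile normalization, hybridisation controls as reference, pseudocounts of 1 and 64, 2 other filters, 2 other rules for the representing probe set, no probe sets that can cross-hybridise, dim signals raised to the median, and thresholds of 1.5-fold and 3-fold. The group without Iigp1 was added after the values were seen. The number of arrays limits the precision.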

Additional observations from a re-analysis of the deposited data

How the results depend on the processing

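The medians of the type I group (-0.58 to -0.12 over 10 alternatives) and of the interferon gamma group (-0.87 to -0.43 over 11) stayed below 0 in each alternative tried. The median of receptors and constitutive factors ranged from -0.52 to 0.17 and was above 0 where the least different probe set represented each gene (0.17) and without probe sets that can cross-hybridise (0.11). Instead of 2 genes at least 2-fold higher and 6 lower, 1 was higher and 3 lower where both signals had to reach the array medians, and likewise with dim signals raised to the median, by which 5.59% of all genes were higher and 6.62% lower. By the mean of probe sets 1 gene was higher, since Zbp1 turned to -0.27. At 1.5-fold 4 were higher and 12 lower (18.7% and 19.3% of all genes), and at 3-fold 0 were higher and 2 lower (3.6% and 4.49%). These thresholds are descriptions, with no test at any of them. No paired analysis was possible because each group has 1 array. Dim signals limit the values of Irf9, Gbp2, Gbp6, Zbp1 and Ifit3 to bounds.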

Other observations

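Several antiviral genes outside the 36 had probe sets that opposed each other, and these were picked after their values were seen. Dhx58, the helicase LGP2, had measured probe sets at 0.01 and -2.46 in log2 difference. Xaf1, an interferon-induced protein linked to apoptosis, had them at -0.06 and 1.27. The 2 measured probe sets of Adar, which edits double-stranded RNA, were both higher but far apart, at 0.15 and 1.65. The interferon gamma targets outside the 36 genes were mixed, with 3 of 5 measured genes lower, 2 higher and none at least 2-fold. Named after their values were seen, the higher ones were Nlrc5 (0.29) and Ido1 (0.57, at least 1.35-fold), and Tap1 stood at -0.46. The immunoproteasome subunits, which interferon gamma induces, were lower, with Psmb8 at 445.2 in the RIR pool and 773.2 in the sham pool (-0.77) and Psmb9 at 570.8 in the RIR pool and 978.9 in the sham pool (-0.76).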
